A study of Rattus norvegicus with 30 samples.

Results

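Potassium channel genes were followed in primary rat hippocampal neurons exposed to DMF, MMF or CBD. They were taken as all protein-coding genes whose symbol starts with Kcn, which gave 91 of the 21993 genes with a read and of the 20180 protein-coding ones. The neurons came from wild-type Wistar rat embryos at day 18, were grown for 7 days, and were then treated for 4 or 24 h. Dimethyl fumarate (DMF) and monomethyl fumarate (MMF) were given at 30 µM in DMSO, and cannabidiol (CBD) at 6 µM in ethanol (EtOH). DMF is the dimethyl ester of fumaric acid, an oral drug for multiple sclerosis, MMF is the monoester to which it is hydrolysed, and CBD is a cannabinoid of the hemp plant. Cells of all 10 groups received 0.2% vehicle, those of the DMSO and EtOH groups vehicle alone, and each group had 3 RNA-seq libraries numbered 1 to 3. The numbers stand for 3 repeats of the experiment, and no source used here says whether each repeat used separate embryos, so p-values measure the spread between these repeats.

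Potassium channels let potassium leave the cell, or hold the membrane near its resting voltage, and so set how readily a neuron fires and how fast it recovers after a spike. The voltage-gated families (Kv and EAG) open when the membrane depolarizes, the SK and Slo families respond to calcium or sodium inside the cell, and the inward rectifiers (Kir) and leak channels (K2P) carry current near rest. Silent modifier subunits and auxiliary proteins form no channel by themselves but change the properties or the traffic of pore-forming partners. In hippocampal neurons, the A-type channels of the Kv1 and Kv4 families, the M-current of Kv7 and the afterhyperpolarization of SK are the classical brakes on firing.

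Between 15108132 and 25367834 reads per library lay on genes. Values are the deposited normalized counts, that is, reads divided by a size factor for each library, which make the libraries of a pair of groups comparable but are not corrected for gene length, so differences in counts between genes are not differences in expression level. Neuronal markers were abundant in every library, with Tubb3 never under 15597 and Slc17a7 never under 10376 on a scale common to the 30 libraries. The cultures were not pure. The astrocyte marker Gfap ranged from 10006 to 52739, the oligodendrocyte precursor marker Pdgfra from 521 to 2522 and the dividing-cell marker Mki67 from 483 to 1649, whereas the microglial marker Tmem119 was at 0 in 9 libraries and never above 8.31. In such bulk samples, fewer cells of a type and less RNA per cell cannot be told apart.

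The promoter sequences below belong to the members on which the main results turn and for which RefSeq's table for the GRCr8 assembly holds one. They are shown so that genes that rose or fell together can be read side by side. Each covers 300 bases, from 250 before to 50 after the gene's start, in the direction of the gene. Kcnj4 lies at chr7:112954498-112954797, minus strand, Kcnf1 at chr6:45693657-45693956, minus strand, and Kcnc4 at chr2:197788384-197788683, minus strand. Kcna4 lies at chr3:114215086-114215385, plus strand, and Kcnc2 at chr7:49587364-49587663, plus strand. Capitals mark the core of the antioxidant response element, TGACNNNGC, which was searched on both strands together with the cAMP response element TGACGTCA.
Kcnj4: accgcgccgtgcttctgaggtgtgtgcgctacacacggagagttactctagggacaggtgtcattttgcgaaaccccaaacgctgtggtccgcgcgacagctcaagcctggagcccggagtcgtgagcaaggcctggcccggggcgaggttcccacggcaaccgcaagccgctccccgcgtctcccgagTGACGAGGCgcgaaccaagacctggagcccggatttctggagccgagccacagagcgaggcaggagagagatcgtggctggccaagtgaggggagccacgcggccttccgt
Kcnf1: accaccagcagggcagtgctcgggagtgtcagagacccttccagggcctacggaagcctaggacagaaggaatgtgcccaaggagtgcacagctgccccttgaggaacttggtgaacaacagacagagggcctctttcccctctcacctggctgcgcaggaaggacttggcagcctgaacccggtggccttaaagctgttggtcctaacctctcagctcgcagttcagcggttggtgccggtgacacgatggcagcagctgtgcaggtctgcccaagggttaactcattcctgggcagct
Kcnc4: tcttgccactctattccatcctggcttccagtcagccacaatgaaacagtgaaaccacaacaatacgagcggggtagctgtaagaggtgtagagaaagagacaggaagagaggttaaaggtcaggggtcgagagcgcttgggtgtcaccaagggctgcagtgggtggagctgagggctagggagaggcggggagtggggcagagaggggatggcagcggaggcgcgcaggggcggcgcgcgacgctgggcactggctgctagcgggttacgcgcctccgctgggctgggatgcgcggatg
Kcna4: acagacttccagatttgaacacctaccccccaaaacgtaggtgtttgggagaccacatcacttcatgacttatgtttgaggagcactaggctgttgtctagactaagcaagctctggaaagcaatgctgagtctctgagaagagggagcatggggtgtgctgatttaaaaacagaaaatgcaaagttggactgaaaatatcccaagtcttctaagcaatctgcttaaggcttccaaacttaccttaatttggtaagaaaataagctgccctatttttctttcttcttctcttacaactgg
Kcnc2: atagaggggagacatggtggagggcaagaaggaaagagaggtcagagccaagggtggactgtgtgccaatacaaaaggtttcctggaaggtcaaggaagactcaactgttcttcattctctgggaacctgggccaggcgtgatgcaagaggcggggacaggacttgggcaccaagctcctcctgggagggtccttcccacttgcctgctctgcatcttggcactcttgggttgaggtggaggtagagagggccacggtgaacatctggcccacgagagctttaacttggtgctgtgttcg
Among these 5, only Kcnj4 held a match, which starts 61 bases before its start site. Over all 33469 promoters in the table, 12.1% held the antioxidant core and 1.83% the cAMP element. For the members, 62 of 91 symbols had a promoter in the table, of which 9 (14.5%) held the antioxidant core and 0 the cAMP element. The letters can overlap other motifs, and a match is a description of the sequence, not evidence of binding.

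The 91 members fell into 13 families by symbol. There were 15 Kir genes, 15 auxiliary genes, 14 K2P genes, 10 modifiers, 8 each of Kv1 and EAG, 4 each of Kv3, Kv7, SK and Slo, 3 of Kv4, and 1 in each family left, among them Kcnrg. In every library, 76 members had at least 1 read. A filter on low counts left 71 members for testing in all 14 comparisons and 4 in some of them. The remaining 16, among them Kcnj1, Kcnj8, Kcna5, Kcnk18 and Kcnmb1, never had more than 21 reads in a library and were not tested. Differences are given as log2 fold changes on the scale of the normalized count plus 1, with the standard error (SE), and a gene was called where its p-value, adjusted over all genes tested, was under 0.05 in limma. Libraries of the same number tended to vary together and were taken as pairs, though their correlations cannot settle the pairing alone. The same test with the replicate number as a block is therefore given for the counts of members and for many of the members described.

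With DMF for 4 h, more members fell than rose. Of 74 members tested, 4 fell (Kcna4, Kcnk1, Kcnn2 and Kcnk10) and 1 rose (Kcne2), which is 6.76% of the members beside 3.41% of all 14208 genes. With the replicate block, 16 members fell and 7 rose, 31.1% beside 23.0% of all genes. The median log2 fold change was -0.03 over the members and 0.00 over all genes tested, and 41 of the 74 were below 0. Falls were spread over the families as 4 of 11 K2P genes, 4 of 9 modifiers, 2 of 3 SK genes, 2 of 6 Kv1 genes, 2 of 10 Kir genes, 1 of 4 Kv3 genes and 1 of 8 EAG genes, all counted with the block. Markers of cell types moved too. Of the 9 neuronal markers, the tubulin gene Tubb3 fell (-0.64 ± 0.11 (SE), adjusted p = 0.025), 6 were above 0 with a list median of 0.05, and the RNA-binding protein Rbfox3 rose with the block (0.23, adjusted p = 0.367 without and 0.00606 with it), with the summed level of the list from 92766 to 109067 with DMF and 101742 to 117785 with DMSO. Of 3 endothelium and pericyte markers tested, 1 fell with or without the block (summed level of the list from 838 to 1083 with DMF and 1005 to 1452 with DMSO). Cspg4 is in this list and in the oligodendrocyte lineage list. It had a median of 825 over the 30 libraries, beside 325 for Pdgfrb, the next highest of this list, and so makes up most of the sum. As 0 oligodendrocyte lineage markers were called without the block, the marker that fell was not Cspg4. With the block only, 2 of 5 GABAergic and 2 of 7 oligodendrocyte lineage markers fell and 3 of 7 dividing-cell markers rose (without it 0, 0 and 2 of these lists at an unadjusted p under 0.05, and 0 by DESeq2). The part of these markers' cells in the results was not tested.

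**Figure D1:**
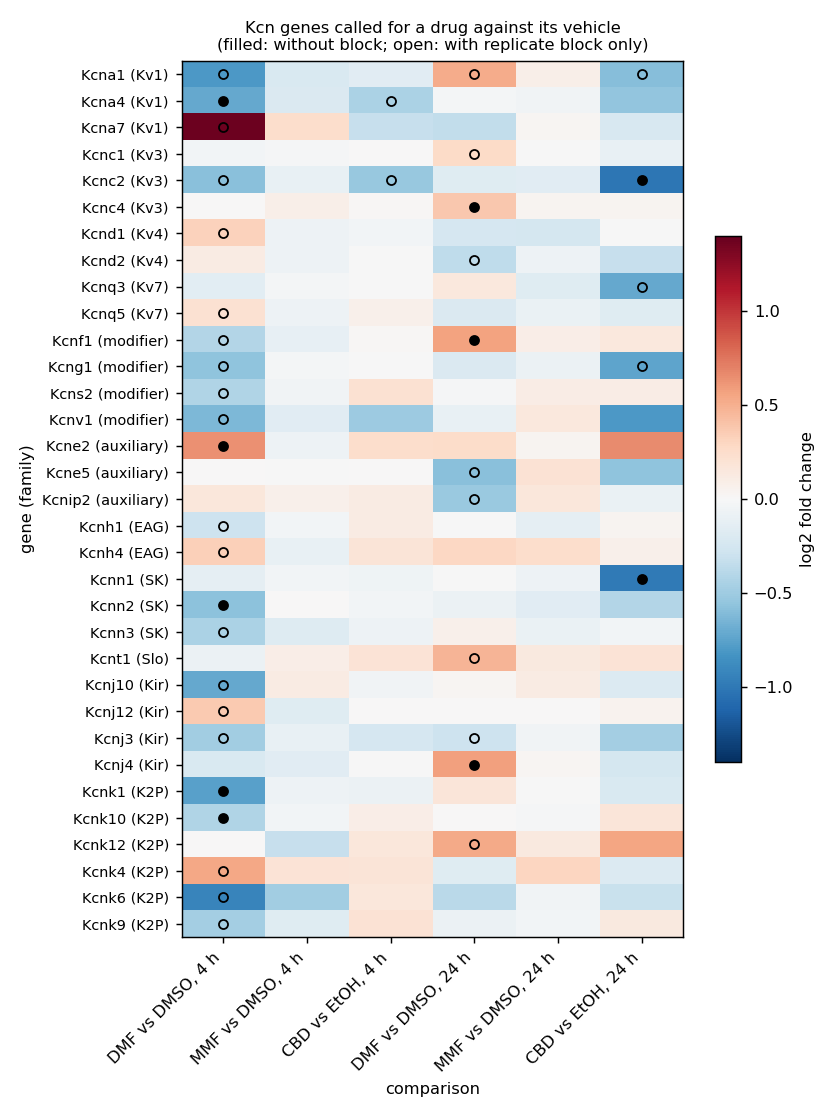
Log2 fold changes (colour) of the 33 Kcn genes (rows, with their family) that were called in at least 1 of 6 comparisons of a drug with its vehicle (columns). Filled circles mark calls without a block and open circles calls with the replicate block only. DMF at 4 h has 5 filled and 18 open circles, MMF has none, and the CBD circles are all on falling genes.

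Kcna4 encodes the pore of a fast-inactivating A-type channel of the Kv1 family (chr3:93756446-93769162 in mRatBN7.2). Its normalized counts were 253, 261 and 246 with DMF in replicates 1 to 3 and 439, 399.9 and 414 with DMSO. Every DMF library was below every DMSO library. The log2 fold change was -0.72 ± 0.10 (SE), adjusted p = 0.0137. Its family member Kcna1, a delayed rectifier of axons, stood at 1681, 1007 and 1415 with DMF against 3758, 1551 and 2186 with DMSO. The groups overlapped, with replicate 1 the highest in both, yet the DMF library was the lower in all 3 replicates. For this gene the adjusted p was 0.187 without and 1.02e-05 with the block (log2 fold change -0.80). Kcna7 went the other way in the family, from 8.59, 12.9 and 11.4 to 24.7, 22.7 and 46.4, but rests on few reads (log2 fold change 1.38 ± 0.36 SE, adjusted p = 0.0769, with the block 0.00703). Without DMSO replicate 1, the log2 fold change of Kcna1 was -0.46.

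Kcnk1 (chr19:53959657-53997724) and Kcnk10 (chr6:117694222-117825695) encode leak channels of the K2P family, the latter one that opens to stretch and fatty acids. For Kcnk1, the counts were 456, 516 and 585 with DMF and 821, 864 and 934 with DMSO, a log2 fold change of -0.76 ± 0.11 (SE), adjusted p = 0.0175. Kcnk10 stood at 674, 785 and 746 against 986, 1024 and 933, a log2 fold change of -0.42 ± 0.09 (SE), adjusted p = 0.0413. Neither gene's groups overlapped. With the block, Kcnk9 (-0.48, adjusted p = 0.00189) and the low-count Kcnk6 (-0.93, adjusted p = 0.0302) fell too, whereas Kcnk4, a mechanosensitive leak channel, rose from 177, 125 and 150.4 to 222, 211 and 223 (0.55, adjusted p = 0.00634). With the block, the leak channels thus did not share 1 direction. The log2 fold change of Kcnk6 was -0.54 without DMSO replicate 1, and -1.4 and -0.56 without DMF replicate 1 and 2.

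Kcnn2 (chr18:37817957-38258347) encodes the calcium-activated SK channel that shapes the afterhyperpolarization of pyramidal cells. It had 631, 774 and 585 normalized counts with DMF and 937, 987 and 1031 with DMSO, without overlap (log2 fold change -0.58 ± 0.11 (SE), adjusted p = 0.0355). Kcnn3, its SK relative, stood at 238, 221 and 211 against 297, 279 and 335, again without overlap, and was called with the block only (-0.44, adjusted p = 0.0833 without and 0.00991 with it). Kcnn1 had a log2 fold change of -0.12 ± 0.16 (SE) and was not called. Among the silent modifiers, Kcng1, Kcns2, Kcnv1 and Kcnf1 all fell with the block, by 0.56, 0.43, 0.63 and 0.41 on the log2 scale (adjusted p = 1.99e-05, 0.0038, 0.0109 and 0.0215), and the groups of each did not overlap. None of these 4 was called without the block, with adjusted p from 0.0592 to 0.161. Kcnc2, a Kv3 channel of fast-spiking interneurons, fell from 277, 410.4 and 353 to 214, 237 and 231 under the same condition (-0.59, adjusted p = 0.0764, with the block 0.00132).

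The inward rectifiers were divided. Kcnj3, a subunit of the G protein-gated channel, and Kcnj10, the main inward rectifier of astrocytes, fell with the block (-0.49 and -0.71, adjusted p = 0.000805 and 0.000103; without it 0.107 and 0.212). Kcnj12 rose with it (0.37, adjusted p = 0.261, with the block 0.0401). Kcnj10 stood at 1250.5, 1696 and 715 with DMF and 2110.5, 2116 and 1494 with DMSO. The summed level of the 8 astrocyte markers ranged from 43536 to 85610.0 with DMF and 49699 to 86042 with DMSO, 0 of them were called without the block and 1 fell with it, and their part in the Kcnj10 result was not tested. Kcnh1, an EAG channel, fell with the block (-0.29, adjusted p = 0.522 without and 0.0156 with it). Kcnd1 (Kv4), Kcnh4 (EAG) and Kcnq5 (Kv7) rose with the block by 0.32, 0.33 and 0.21 (adjusted p = 0.00861, 0.0431 and 0.0306). Single libraries weighed on several of these log2 fold changes. Without DMF replicate 3, that of Kcnj10 was -0.37, that of Kcnd1 0.21 and that of Kcnq5 0.09. Kcnh1 ranged from -0.09 without DMSO replicate 3 to -0.49 without DMF replicate 3, and had -0.46 and -0.19 without DMSO and DMF replicate 1.

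The auxiliary gene Kcne2 encodes a small membrane protein that associates with several Kv channels. It rose from 199, 272 and 216 normalized counts with DMSO to 360.4, 341 and 366 with DMF, with no overlap (log2 fold change 0.64 ± 0.14 (SE), adjusted p = 0.0447). In the files' coordinates its span (chr11:31295614-31530043) overlaps those of Mrps6 and Slc5a3, whose log2 fold changes were -0.15 ± 0.09 (SE, adjusted p = 0.403) and -0.91 ± 0.16 (SE, adjusted p = 0.0255). Slc5a3, a transporter of inositol, thus moved the opposite way, and how reads in shared positions were assigned is not given in the sources used here. The number of members called at 4 h was 3, 0 and 0 without DMSO replicate 1, 2 and 3, and 1, 0 and 2 without DMF replicate 1, 2 and 3. In these fits with 5 libraries, Kcnk1 was called in 3 (adjusted p from 0.0195 to 0.0724), Kcna4 in 2 (0.042 to 0.0671), and Kcnn2, Kcnk10 and Kcne2 in 0 (0.0531 to 0.107, 0.095 to 0.112 and 0.0585 to 0.139).

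**Figure D2:**
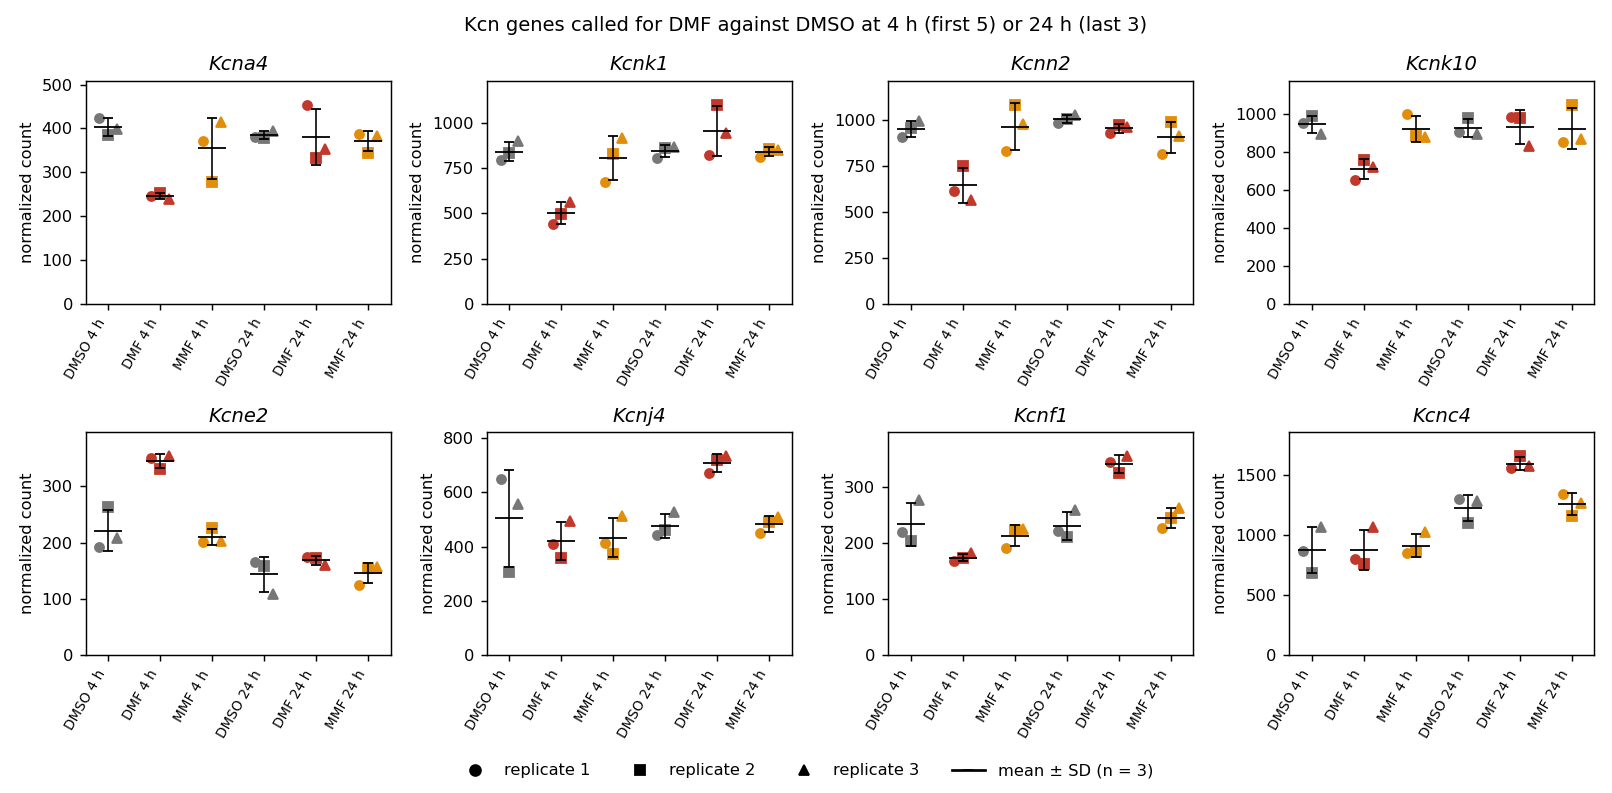
Normalized counts on a scale common to all 30 libraries (vertical axis, from 0) of 8 Kcn genes in the DMSO, DMF and MMF groups at 4 and 24 h (horizontal axis), with replicates 1 to 3 as separate symbols and the mean ± SD (n = 3) as bars. In the upper row and Kcne2, the DMF libraries at 4 h lie apart from the DMSO libraries at 4 h, and in Kcnj4, Kcnf1 and Kcnc4 those at 24 h lie above all others.

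After 24 h with DMF, Kcnj4, Kcnf1 and Kcnc4 rose and 0 members fell, which is 4.05% of 74 members tested beside 3.97% of all 13967 genes. With the block, 7 members rose and 4 fell (14.9% beside 12.9% of all genes). These shares are close to the background. Median log2 fold changes were -0.01 over the members and -0.01 over all genes.

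Kcnj4 (chr7:111047094-111074151), a strong inward rectifier of forebrain neurons, stood at 640.5, 688 and 701 with DMF and 423, 442 and 503 with DMSO (log2 fold change 0.57 ± 0.09 (SE), adjusted p = 0.011). Kcnf1 (chr6:39962307-39964979), a silent modifier subunit, stood at 329, 309.6 and 339 against 212, 201 and 247 (log2 fold change 0.57 ± 0.11 (SE), adjusted p = 0.0267). Kcnc4 (chr2:195071769-195099233), a fast-inactivating Kv3 channel, stood at 1489, 1585 and 1508 against 1243, 1056 and 1223 (log2 fold change 0.38 ± 0.08 (SE), adjusted p = 0.032). In all 3 genes, every DMF library was above every DMSO library. Kcnt1, a sodium-activated Slo channel, rose from 429, 514 and 418 to 558, 717 and 622, without overlap, and was called with the block only (0.48, adjusted p = 0.0635 without and 0.00297 with it). Kcna1, Kcnk12 and Kcnc1 likewise rose with the block only, by 0.52, 0.54 and 0.27 (adjusted p = 0.136, 0.139 and 0.193 without the block, and 0.00638, 0.0298 and 0.0491 with it). Without DMF replicate 1, Kcna1 had 0.33.

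Members that were lower with DMF at 24 h included a pore and a partner of the Kv4 family. Kcnd2, the Kv4 pore of the dendritic A-current, stood at 779.9, 728 and 845 with DMF and 925, 948 and 1145 with DMSO, and Kcnip2, which binds Kv4 pores and raises their surface level, at 822, 589 and 831 and 1071, 917 and 1193. Neither gene's groups overlapped. Both fell with the block only, by 0.35 and 0.51 on the log2 scale (adjusted p = 0.0942 and 0.0979 without, 0.00664 and 0.00126 with it). So did Kcnj3 and the auxiliary Kcne5 (-0.29 and -0.58, adjusted p = 0.306 and 0.421 without, 0.0386 and 0.00282 with it). Kcne5 had -0.19 without DMF replicate 3, and Kcnj3 had -0.17 without DMSO replicate 3. The other Kv4 pores, Kcnd1 and Kcnd3, were not called.

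Markers of other cells moved at the same time. The 7 dividing-cell markers all fell with DMF at 24 h, and their summed level ranged from 1600.3 to 1872 with DMF and 3853 to 4225 with DMSO. Of the oligodendrocyte lineage markers, 3 of 7 tested fell (summed level from 10836 to 13678 and 13687 to 16569.8), and 1 of the 8 astrocyte markers did (summed level from 56903 to 102864 and 53096 to 89883), while with the block 1 astrocyte marker rose and 3 fell. Of 3 endothelium and pericyte markers, 1 fell (summed level of the list from 674 to 775 and 1222 to 1392). This list shares Cspg4, which makes up most of its sum, with the oligodendrocyte lineage list, so the 2 lists are not separate measures. Of the 9 neuronal markers, 0 were called without the block (5 at an unadjusted p under 0.05; 1 by DESeq2), and 1 rose and 3 fell with it. Of the 5 GABAergic markers, 0 were called without the block (2 and 0) and 2 fell with it, with a list median of -0.20. The part of these cells in the results for the potassium channel genes was not tested. Without DMSO replicate 1, 2 and 3, the number of members called at 24 h was 0, 0 and 2, and without DMF replicate 1, 2 and 3 it was 2, 0 and 6. Kcnj4 was called in 3 of these 6 fits (adjusted p from 0.0126 to 0.0745), Kcnf1 in 2 (0.0324 to 0.131) and Kcnc4 in 1 (0.0266 to 0.124).

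Whether DMF acted differently at the 2 times was tested as an interaction over 12 libraries. Called or not, the effect at 24 h minus that at 4 h was above 0 for 47 members and below 0 for 27. It was called above 0 for 4 members and below 0 for 0 of 74 (5.41% of the members, 4.12% of all 14432 genes). With the block, it was called above 0 for 10 and below 0 for 9 (25.7% beside 13.2%). For Kcnk1, the log2 difference was 0.92 ± 0.16 (SE), adjusted p = 0.00685. It was 0.98 ± 0.18 (SE), adjusted p = 0.0104 for Kcnf1, 0.69 ± 0.15 (SE), adjusted p = 0.027 for Kcna4, and 0.50 ± 0.13 (SE), adjusted p = 0.0467 for Kcnn2, for which edgeR gave an adjusted p of 0.0506. Kcnk1, Kcna4 and Kcnn2 were lower at 4 h and stood at 0.17, -0.03 and -0.08 against DMSO at 24 h (adjusted p = 0.451, 0.938 and 0.594). Kcnf1 passed from -0.41 at 4 h to 0.57 at 24 h. Kcnk1 and Kcnf1 remained called without any 1 of the 12 libraries, Kcna4 in 5 of these 12 fits and Kcnn2 in 1, so the count was 2 without any 1 DMSO library at 24 h, without DMSO replicate 1 or 3 at 4 h or without DMF replicate 3 at 4 h, and 3 to 5 without the others. The difference was also called below 0 for 6 of 7 dividing-cell markers (0 of 7 above 0, list median -1.25). It was called below 0 for 1 of 8 oligodendrocyte lineage markers (3 of 8 above 0, list median -0.25). So it was for 1 of 3 endothelium and pericyte markers (2 of 3 above 0), and these 2 lists share Cspg4. The part of all these markers in the members' results was not tested.

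With the block, the difference between the times was also called for members whose 2 log2 fold changes had opposite signs. Kcna1 went from -0.80 to 0.52 (difference 1.32 ± 0.39 SE, adjusted p = 0.0827 without and 0.000588 with the block). Among those with a difference below 0 were Kcnip2 and Kcnd2 (-0.67 and -0.47, adjusted p = 0.000607 and 0.00939 with the block, 0.0892 and 0.144 without it), which had been at 0.16 and 0.12 at 4 h. Kcnq5 and Kcnk4 also had a difference below 0 (-0.42 and -0.71, adjusted p = 0.00939 and 0.0326 with the block, 0.145 and 0.137 without it).

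**Figure D3:**
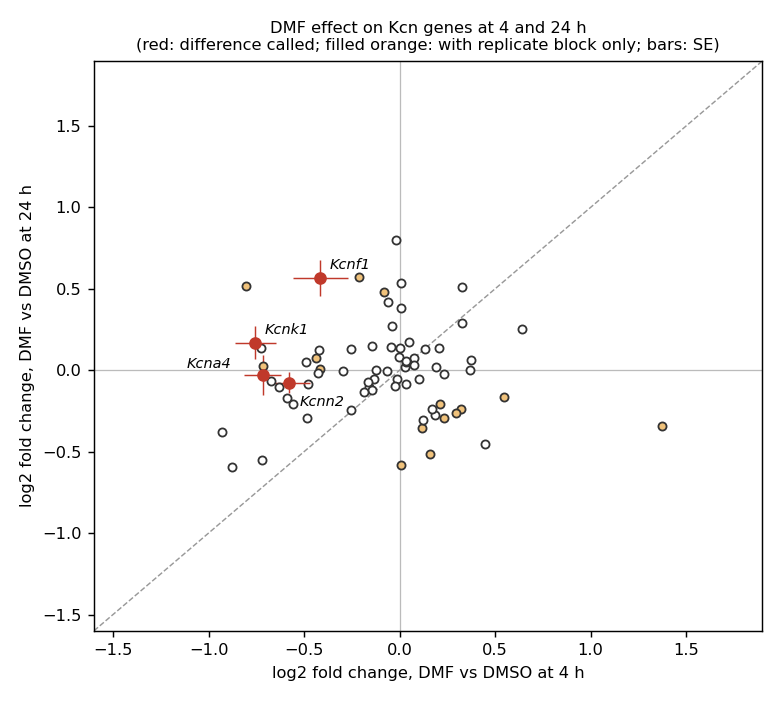
Log2 fold changes of DMF against DMSO at 4 h (horizontal axis) and 24 h (vertical axis) for the 74 Kcn genes tested at both times, with the line of equal effects dashed. The 4 red genes, whose difference between the times was called, lie above the line with bars for the SE, and orange genes were called with the replicate block only.

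Within the DMF cultures, 24 h was compared with 4 h directly, and the same was done in the vehicle cultures. In DMF, 13 members rose and 3 fell (21.9% of 73 tested, beside 15.5% of all 14283 genes), and with the block 28 rose and 10 fell (52.1% beside 32.3%). The members' median log2 fold change was 0.26, and that of all genes was 0.00. In DMSO, 0 members were called without the block (0.0% of all genes; 9 members at an unadjusted p under 0.05; 0 by DESeq2) and 2 rose with it (2.74% of the members beside 1.47% of all genes). In EtOH, 0 members were called with or without it (0.0% of all genes without the block and 1.05% with it; 1 member at an unadjusted p under 0.05; 0 by DESeq2). The members' medians were 0.08 in DMSO and 0.04 in EtOH. More members were above 0 than below in all 3 cultures, 52 of 73 in DMF, 57 of 73 in DMSO and 45 of 73 in EtOH. In DMF, all 7 dividing-cell markers fell too, from a summed level of 5454 to 6787 at 4 h to one of 1778 to 2083 at 24 h. Of the other markers, 1 of 8 astrocyte markers rose, and 1 rose and 1 fell both of 8 oligodendrocyte lineage and of 4 endothelium and pericyte markers (2 lists that share Cspg4). The part of these cells in the members' changes was not tested.

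Kcnf1 rose in DMF from 178, 183 and 192 at 4 h to 366, 344 and 378 at 24 h (log2 fold change 0.97 ± 0.11 (SE), adjusted p = 0.00125), and Kcnk1 from 469, 529.8 and 598 to 877, 1168 and 1008 (0.93 ± 0.13 (SE), adjusted p = 0.00302). Kcnc4 rose as well (0.89 ± 0.12 (SE), adjusted p = 0.003), but had a log2 fold change of 0.51 ± 0.15 (SE) in DMSO too, where it was called with the block only (adjusted p = 0.385 without and 0.0169 with it). The other member that rose in DMSO with the block was Kcnip2 (0.38, adjusted p = 0.0244), which in DMF was lower at 24 h (-0.29, adjusted p = 0.202 without and 0.0198 with the block, and a log2 fold change of -0.13 without DMF replicate 2 at 24 h). Kcnj4, Kcnc2, Kcnt1, Kcnn2, Kcnn3, Kcna4, Kcna1, Kcnk10, Kcna6 and Kcnv1 completed the 13, with log2 fold changes from 0.39 (Kcnk10) to 0.82 (Kcna1). Kcne2 fell from 371, 351 and 374 to 185, 183 and 170.0 (-1.02 ± 0.11 (SE), adjusted p = 0.000972), while Slc5a3 next to it rose (1.01 ± 0.16 (SE), adjusted p = 0.00487). In DMSO, Kcne2 was lower at 24 h too, though not called. On the scale common to 30 libraries, its DMSO means were 221 at 4 h and 144 at 24 h, and its EtOH means 149 and 138. For Kcne2, the interaction of DMF with time was not called, with or without the block. Kcnip1, another Kv4-binding protein, and Kcnj14 were the remaining falls (-0.48 and -0.58, adjusted p = 0.0284 and 0.0161). The span of Kcnj14 overlaps 8 other genes in the files' coordinates, and that of Kcnip1 overlaps Kcnmb1. Of the genes that overlap Kcnj14, Odad1 fell with the block (-1.08, adjusted p = 0.0905 without and 0.002 with it). Grwd1 rose with it (0.28, adjusted p = 0.126 without and 0.0354 with it), and the others tested were not called. Without DMF replicate 2 at 4 h, 8 members were called, and without each other library 11 to 20. The 8 that were called in all 6 of these fits were Kcne2, Kcnf1, Kcnc4, Kcnk1, Kcnj4, Kcnc2, Kcnt1 and Kcnn2.

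**Figure D4:**
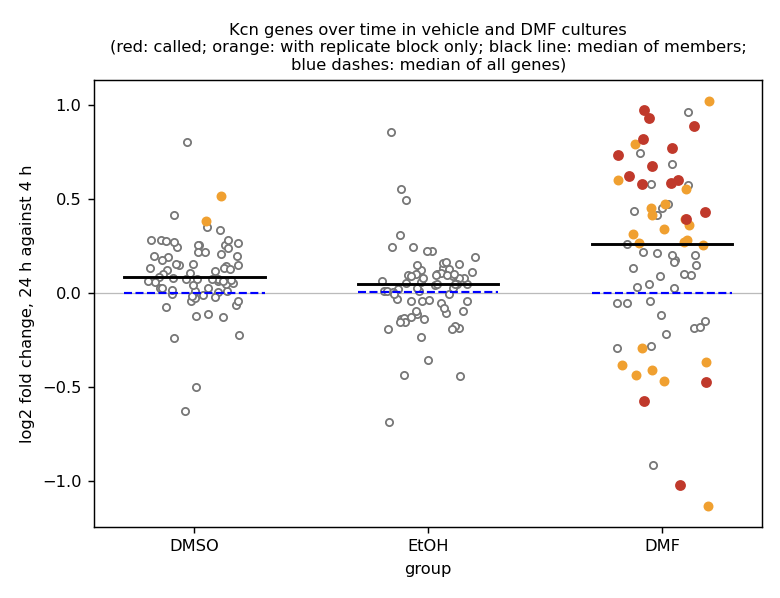
Log2 fold change of 24 h against 4 h (vertical axis) for each of the 73 Kcn genes tested in the DMSO, EtOH and DMF cultures (horizontal axis, points spread sideways for clarity). The black lines are the members' medians (0.08, 0.04 and 0.26), the blue dashes those of all genes, red points were called and orange ones with the replicate block only.

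MMF, at the dose of DMF, gave no call among the members in limma. It was compared with the same DMSO libraries as DMF, so that the 2 sets of values are not independent. At 4 h, 0 of 72 members were called with or without the block (0.0% of all 14032 genes in either fit), 0 had an unadjusted p under 0.05, and DESeq2 called 0. At 24 h, 0 of 74 were called (0.00707% of all 14137 genes, and 1.38% with the block, where the members again had 0), 2 had an unadjusted p under 0.05, and DESeq2 called 0. The 95% intervals of the log2 fold change lay within 1 of 0 for 66 of 72 members at 4 h and 71 of 74 at 24 h. Kcna4 had a log2 fold change of -0.20 at 4 h (95% interval -0.55 to 0.15), Kcnk1 one of -0.07 (-0.35 to 0.21) and Kcnn2 one of 0.01 (-0.24 to 0.26). The members with the smallest p at 24 h were Kcnd1, at 427, 460.1 and 480.3 with MMF and 532, 515 and 573 with DMSO (-0.24 ± 0.08 (SE), adjusted p = 0.952), and Kcnq3, at 961, 1064 and 929 and 1105, 1117 and 1086 (-0.17 ± 0.06 (SE), adjusted p = 0.952). Neither pair of groups overlapped.

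DMF and MMF, which differ by a methyl ester, were also compared with each other, 1 pair of compounds at 2 times, both at 30 µM, and here no DMSO library enters. At 4 h, 1 of 73 members was called higher with DMF (1.37% beside 1.61% of all 14200 genes), and with the block 8 were called higher and 13 lower (28.8% beside 23.6%). Kcne2 stood at 357, 337 and 361 with DMF and 207, 232 and 208 with MMF (0.70 ± 0.11 (SE), adjusted p = 0.0305). For Kcnk1, Kcnn2 and Kcna4, every DMF library was below every MMF library, but they were called with the block only (-0.69, -0.59 and -0.52, adjusted p = 0.0552, 0.0744 and 0.131 without, 4.47e-06, 3.21e-05 and 0.00316 with it). Without any 1 of the 6 libraries, 0 members were called at 4 h.

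At 24 h, 3 of 75 members were called higher and 1 lower with DMF than with MMF (5.33% beside 3.56% of all 14233 genes), and with the block 8 were called higher and 5 lower (17.3% beside 12.2%). Kcnj4 stood at 708, 760.2 and 774 with DMF and 478, 519.9 and 538 with MMF (0.54 ± 0.08 (SE), adjusted p = 0.0106). Kcnip2 stood at 908, 651 and 917 and 1303, 1210.2 and 1395 (-0.67 ± 0.13 (SE), adjusted p = 0.03). Kcnf1 (0.48 ± 0.10 (SE), adjusted p = 0.0411) and Kcnc4 (0.34 ± 0.07 (SE), adjusted p = 0.0427) were the other calls, and the groups of these 4 genes did not overlap. Over the members, the 95% interval of the difference between the fumarates reached a median of 0.36 to either side at 4 h and 0.29 at 24 h on the log2 scale, and it lay within 1 of 0 for 58 of 73 and 65 of 75 members. The count without DMF replicate 1, 2 and 3 was 1, 1 and 3, and without MMF replicate 1, 2 and 3 it was 0, 1 and 2. All 7 dividing-cell markers were called lower with DMF at 24 h too (list median -1.21). So were 3 of 8 oligodendrocyte lineage and 1 of 3 endothelium and pericyte markers, 2 lists that share Cspg4. With the block only, 3 of 9 neuronal, 1 of 5 GABAergic and 4 of 8 astrocyte markers were lower, and 1 astrocyte marker was higher. The part of these cells in the members' results was not tested.

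All members called by limma with CBD, with or without the block, were lower than with EtOH, while DESeq2 called 1 higher and 6 lower at 24 h, the higher one being Kcne2 (0.67, adjusted p = 0.253 in limma and 0.0413 in DESeq2). At 4 h, 0 of 74 were called (0.00705% of all 14193 genes), 4 had an unadjusted p under 0.05, and DESeq2 called 0, while with the block 2 fell (2.7% beside 2.33% of all genes). These were Kcnc2, at 223, 236 and 270.2 with CBD and 289, 370.5 and 400.5 with EtOH (-0.53, adjusted p = 1 without and 0.00319 with the block), and Kcna4, at 205, 243 and 334 and 330.3, 315 and 407 (-0.45, adjusted p = 1 without and 0.0149 with it). The Kcnc2 groups did not overlap and the Kcna4 groups did, and without CBD replicate 1 Kcna4 had -0.29. With DMF at 4 h, against other vehicle libraries, they had -0.59 and -0.72.

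At 24 h, 2 of 73 members fell with CBD and 0 rose (2.74% beside 0.114% of all 14079 genes), and with the block 5 fell and 0 rose (6.85% beside 0.504%). The median log2 fold change was -0.11 over the members and 0.00 over all genes, and 46 of the 73 were below 0. Kcnn1 (chr16:18585992-18597482), an SK channel, stood at 192, 218 and 204 with CBD and 376, 419 and 432 with EtOH (log2 fold change -0.99 ± 0.12 (SE), adjusted p = 0.0336). Kcnc2 (chr7:47700288-47883968) stood at 187, 203 and 169 against 389, 349 and 394 (-1.01 ± 0.13 (SE), adjusted p = 0.0412). In both genes, no CBD library reached the lowest EtOH library. Kcnq3 (chr7:97730465-98025653), a pore of the M-current, stood at 564, 587 and 662 against 929, 973 and 1076, without overlap, and was called with the block only (-0.72, adjusted p = 0.0734 without and 0.0115 with it). Kcng1 and Kcna1 followed in the same way (-0.74 and -0.60, adjusted p = 0.0972 and 0.319 without, 0.0334 and 0.0179 with it). Kcnh3, an EAG channel of the forebrain, had 994, 1058 and 847 against 1275, 1470.1 and 1507 and was not called (-0.55 ± 0.11 SE, adjusted p = 0.227, with the block 0.0695). The span of Kcnh3 overlaps that of Mcrs1, which was lower with CBD too and not called (-0.31 ± 0.08 SE, adjusted p = 0.319, with the block 0.1085).

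**Figure D5:**
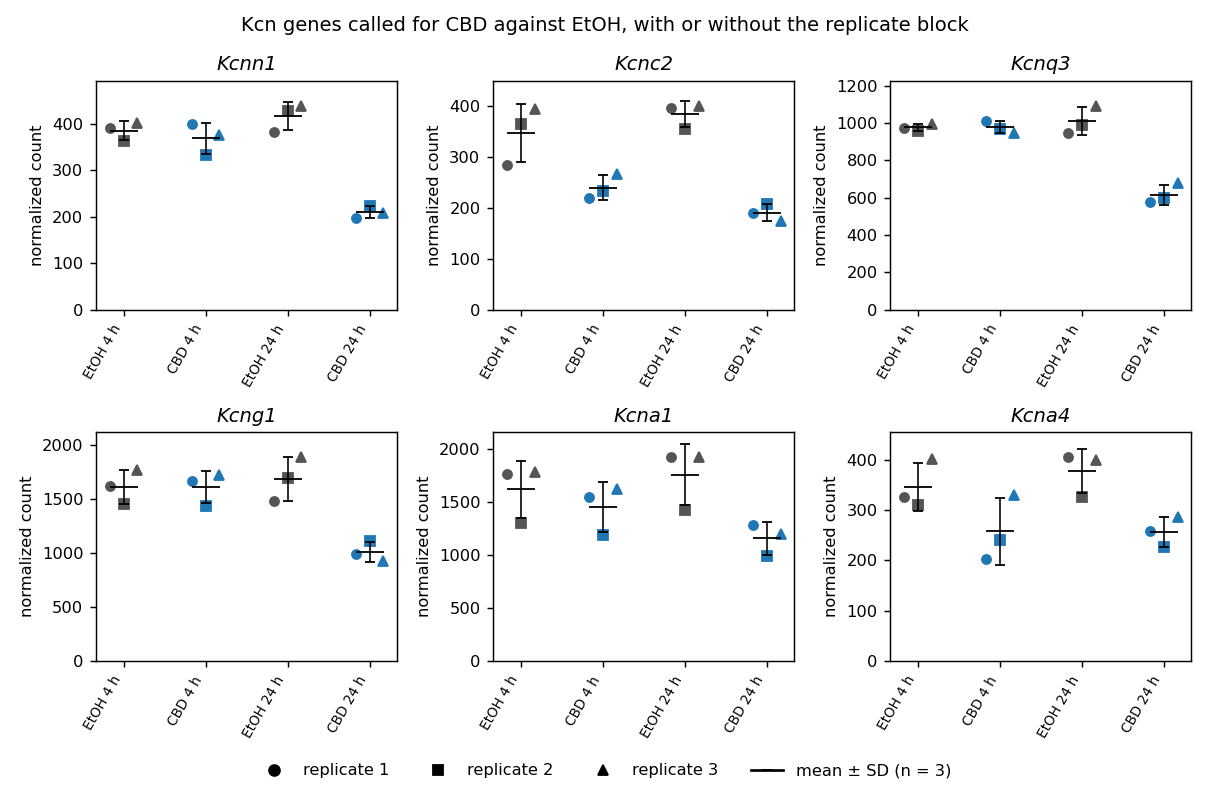
Normalized counts on a scale common to all 30 libraries (vertical axis, from 0) of 6 Kcn genes in the EtOH and CBD groups at 4 and 24 h (horizontal axis), with replicates 1 to 3 as separate symbols and the mean ± SD (n = 3) as bars. At 24 h the 3 CBD libraries lie below the 3 EtOH libraries in all 6 genes, and at 4 h they do so in Kcnc2.

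Markers of GABAergic neurons moved with these genes. Of the 5 markers, Gad1 and Gad2 fell with CBD at 24 h (-0.81 and -0.84, adjusted p = 0.0134 and 0.0104), Npy, Sst and Slc32a1 had -1.03, -0.43 and -0.22 (adjusted p = 0.289, 0.618 and 0.612), and their summed level ranged from 4873 to 6071 with CBD and 7725 to 8608 with EtOH. Their part in the results for Kcnc2 and the other members was not tested. Of the 8 astrocyte markers, 0 were called (1 at an unadjusted p under 0.05; 0 by DESeq2), and of the 9 neuronal markers 0 (4 and 1). Most of these were below 0 too, with list medians of -0.46 (1 of 8 above 0) and -0.16 (1 of 9 above 0). The 7 dividing-cell markers had a median of -0.25 (0 above 0, 0 called) and the oligodendrocyte lineage markers one of 0.00 (4 of 7 above 0). The part of these cells was not tested either. Without EtOH replicate 1, 2 and 3 the number of members called was 0, and without CBD replicate 1, 2 and 3 it was 3, 0 and 3. The adjusted p of Kcnn1 ranged from 0.025 to 0.318 over these fits and that of Kcnc2 from 0.0275 to 0.325, each called in 2 of 6.

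The effect of CBD was set against that of DMF as a difference of log2 fold changes, each against its own vehicle and at its own dose (6 and 30 µM). At 24 h, it was called below 0 for 2 of 74 members and above 0 for 0 (2.7% beside 0.391% of all 14313 genes), and with the block below 0 for 5 (6.76% beside 2.58%). Called or not, it was below 0 for 44 members and above 0 for 30. Kcnn1 had a difference of -0.99 ± 0.14 (SE), adjusted p = 0.00924, with DMF itself near 0 (95% interval -0.23 to 0.22). Kcnq3 had one of -0.86 ± 0.13 (SE), adjusted p = 0.0101, with DMF at 0.15 (95% interval -0.03 to 0.33). Both remained called without any 1 of the 12 libraries. Kcna1, Kcnc2 and Kcnh3 were called below 0 with the block only (-1.12, -0.85 and -0.59, adjusted p = 0.0859, 0.0595 and 0.0834 without, 0.000952, 0.019 and 0.0277 with it). Of the 5 GABAergic markers, 1 was called below 0 without the block and 2 with it (list median -0.61, 1 of 5 above 0). With the block only, 3 of 7 dividing-cell and 2 of 7 oligodendrocyte lineage markers were called above 0 (list medians 0.93 and 0.34). The part of these cells in the members' results was not tested.

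At 4 h, the difference between CBD and DMF was called for 0 of 74 members (0.999% of all 14615 genes; 10 members at an unadjusted p under 0.05; 4 by DESeq2). Called or not, it was above 0 for 45 members and below 0 for 29. With the block it was called above 0 for 9 and below 0 for 2 (14.9% beside 10.4%). Kcnk1, Kcnk10, Kcnn2 and Kcns2, at -0.76, -0.42, -0.58 and -0.43 with DMF and -0.08, 0.09, -0.04 and 0.21 with CBD, were among the 9 (differences of 0.67, 0.51, 0.54 and 0.63, adjusted p = 0.109, 0.0792, 0.0939 and 0.0665 without, 0.00077, 0.00232, 0.00469 and 0.00354 with the block). Without DMF replicate 2 at 4 h, 1 member, Kcnn2, was called.

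Several members that had the most reads in their family, with no correction for length, were not called in any of the 6 comparisons of a drug with its vehicle, with or without the block. Kcna6, a Kv1 pore, had log2 fold changes between -0.05 and 0.14, and its group means on the scale common to 30 libraries lay between 1860.5 and 2492. Kcnma1, the large-conductance calcium-activated channel, had -0.14 to 0.18, and Kcnd3, a Kv4 pore, had -0.12 to 0.25. Kcnh3 was not called either but had -0.55 to 0.08, the lowest with CBD at 24 h.

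Beyond the Kcn symbols, 25 genes that handle potassium or partner its channels were looked at, among them the cotransporters Slc12a2 and Slc12a5, and the sulfonylurea receptors Abcc8 and Abcc9. With DMF at 4 h, 0 of 23 tested were called (5 at an unadjusted p under 0.05; 2 by DESeq2), with a median log2 fold change of 0.02, and with the block 4 rose and 4 fell, including Abcc9 (0.61, adjusted p = 0.0086) and Lgi1, a secreted protein that acts on Kv1 channels (-0.45, adjusted p = 0.000588). At 24 h with DMF, 1 of 24 rose and 0 fell without the block, and 3 rose and 3 fell with it, with a median of -0.03. Slc12a5, which sets the chloride gradient of mature neurons, fell with the block (-0.32, adjusted p = 0.0535 without and 0.0078 with it). With MMF, 0 of 23 were called at 4 h (0 at an unadjusted p under 0.05; 0 by DESeq2) and 0 of 24 at 24 h (1 and 0), with or without the block. With CBD, 0 of 24 were called at 4 h (0 and 0) and at 24 h (6 and 2), where their median was -0.15, and with the block Atp1b2 rose at 4 h (0.24, adjusted p = 0.0154) and Akap5, a scaffold that anchors Kv7 and other channels, fell at 24 h (-0.73, adjusted p = 0.0575 without and 0.0174 with it). Within DMF, Amigo1 and Atp1b1 were among those that rose from 4 to 24 h (0.41 and 0.34, adjusted p = 0.0293 and 0.0413).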

How the data were processed

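Poly(A)+ RNA-seq was available for 30 libraries of rat hippocampal neurons, 3 for each of 10 groups. Per the submitters' processing notes and the study's methods, adapters were cut with cutadapt 4.4, short or poor reads were dropped with Trimmomatic 0.39, HISAT2 2.2.1 placed the rest on mRatBN7.2, and HTSeq 2.0.3 counted them per Ensembl gene. The authors then ran DESeq2 1.40.2 on pairs of groups. HTSeq's strand setting is not given in the sources used here. The deposited signal values are counts per gene divided by a DESeq2 size factor within each pair of groups. The tables also hold the authors' fold changes and p-values, which were not used, and 11 of 19 tables served here. Every value was within 0.01 of a whole read (100%), which gave back the reads, and 0 of 745428 values differed between tables. Depth limits the precision of members with few reads.

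Because the tables hold normalized values, log2(value + 1) was tested with limma-trend (limma 3.58.1, R 4.3.3) after filterByExpr of edgeR 4.0.16 on the recovered reads, with Benjamini-Hochberg adjustment over all genes and a threshold of 0.05. Interactions used 12 libraries with median-ratio size factors. A scale common to 30 libraries used the same factors. The replicate numbers mark the study's repeats. Deviations of same-numbered libraries from their group means correlated at 0.129 to 0.668 in all comparisons, above 0.1, and those of different numbers at most at 0.195. The ranges overlapped in some comparisons. With MMF against DMSO at 4 h, the lowest of the same number was 0.129 and the highest of different numbers 0.134. Deviations from a group mean sum to 0, which lowers the correlations of different numbers, so that these values cannot settle the pairing alone. The numbers were taken as pairs. Alternatives were the replicate block, DESeq2 1.42.0, edgeR's quasi-likelihood test with and without the block, TMM scaling, no filter, 0.1 as the pseudocount, and fits without each library in turn. Count tests ran on the recovered reads and called 5 (edgeR) and 9 (DESeq2) members for DMF at 4 h. Scripts were tested on simulated data. Named genes are all members called in any comparison with or without the block, the 5 with the smallest p for each drug against its vehicle, and the member with the most reads of each family, of which the report describes the main ones. Members and lists were chosen with earlier results of these data known. Results for some genes are not reported here. Plots were drawn in Python 3.11.15 with matplotlib 3.10.9.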

Additional observations from a re-analysis of the deposited data

Results flagged for a closer look

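For 4 members, the effect of DMF against DMSO differed between 24 h and 4 h by the interaction test of limma over 12 libraries, with adjustment over all genes. The log2 difference (24 h minus 4 h) was 0.98 for Kcnf1 (adjusted p = 0.0104), 0.92 for Kcnk1 (adjusted p = 0.00685), 0.69 for Kcna4 (adjusted p = 0.027) and 0.50 for Kcnn2 (adjusted p = 0.0467). Groups of 3 libraries are too small for a test of single outlying libraries.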

How the results depend on the processing

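The replicate block raised 11 of the 14 counts of members called. With DMF against DMSO, limma without a block, DESeq2, limma with the replicate block and edgeR with it called 5, 9, 23 and 24 members at 4 h and 3, 7, 11 and 11 at 24 h. For CBD against EtOH, they called 0, 0, 2 and 2 at 4 h and 2, 7, 5 and 5 at 24 h. For MMF at 24 h, edgeR with the replicate block called 1 member, Kcng4, and the other settings 0. For DMF against MMF, the counts were 1, 7, 21 and 22 at 4 h, where edgeR without a block and limma without a filter gave 2 each, and 4, 6, 13 and 13 at 24 h. Within DMF over time they were 16, 22, 38 and 39, and within DMSO 0, 0, 2 and 2. The interaction of DMF with time gave 4, 8, 19 and 20 (edgeR without a block 3), and CBD minus DMF gave 0, 4, 11 and 11 at 4 h and 2, 5, 5 and 5 at 24 h. TMM scaling and a pseudocount of 0.1 left each of the 14 counts as it was.

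Leaving out 1 library gave 0 to 3 members for DMF at 4 h, 0 to 6 at 24 h, 0 to 3 for CBD at 24 h, 0 to 0 and 0 to 3 for DMF against MMF at 4 and 24 h, 8 to 20 for DMF over time, 2 to 5 for the interaction, and 0 to 1 and 2 to 3 for CBD minus DMF at 4 and 24 h. Such fits have fewer samples. Of 164 named log2 fold changes, 1 changed sign in any of 2342 refits: Kcnk12 with MMF at 4 h, at 0.033 without MMF replicate 1 and -0.52 without MMF replicate 3. The cause was not tested for any of these. Depth limits members with few reads, such as Kcna7 and the 16 untested ones, and 3 libraries per group limit all.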
